A study of Mus musculus with 6 samples.

Results

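Toll-like receptors, with the co-receptor gene Cd14, were examined in monocytes sorted from melanoma tumours. The members were chosen by gene symbol: 4 receptors of the cell surface (Tlr1, Tlr2, Tlr4 and Tlr6), 5 receptors of endosomes (Tlr3, Tlr7, Tlr8, Tlr9 and Tlr13) and Cd14, in all 10 of the 18341 genes in the table. All 10 passed the filter of a mean of 1 CPM (reads divided by the library total and rescaled) and were tested with 12824 genes. The 3 BAFF tumour libraries came from monocytes of B16.F10 tumours whose cells overexpressed BAFF, and the 3 control tumour libraries from tumours of control cells. B16.F10 cells are mouse melanoma cells that make pigment. Hosts were C57BL/6 mice, injected under the skin, and tumours were taken at day 13. The source label names the tumour line, and the series design names sorted monocytes as the cells sequenced. The labels give neither the animals' age, the vector that drove BAFF, nor whether each library came from its own animal, so p-values measure only the spread between these libraries.

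Toll-like receptors are membrane proteins with a horseshoe of leucine-rich repeats that binds microbial or damaged-cell molecules and an inner TIR domain that recruits adaptors. Surface receptors read mainly lipids and lipoproteins, and endosomal receptors read nucleic acids after the chaperone Unc93b1 has carried them from the endoplasmic reticulum. Signals through the adaptor Myd88 or the adaptor Ticam1 (TRIF) end in NF-kB and interferon regulatory factors, and monocytes and macrophages are among the cells richest in these receptors. The comparison asks how receptor transcripts of tumour monocytes differ when the tumour makes BAFF, a cytokine of the TNF family.

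Sequencing depth differed between libraries. From the step between low values, 1 CPM stood for 4.72 to 27.6 reads, the floor of 3 reads lay at 0.109 to 0.636 CPM for counting error only, and the listed genes held 39.8% to 66.1% of the total. Control tumours 2 and 3 stood apart, with the ribosomal RNA gene CT010467.1 at 27017 and 43052 CPM against 299 to 5880 CPM in the other libraries. Over all tested genes the median log2 fold change (BAFF over control) was 0.23, a shift that folds on the deposited scale include. Median-of-ratios size factors, which set the typical gene of each library level, brought that median to 0.01 and are given beside the deposited values. In the deposited-scale fit the spread was pooled over genes of similar level, so a gene's SE there does not reflect its own spread. Monocyte and macrophage identity genes summed to 9481 to 11061 CPM in the BAFF group and 5561 to 10462 CPM in the control group, and all 12, Csf1r, Lyz2 and Ccr2 among them, were tested.

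Tlr2 rose on both scales, Cd14 passed as higher and Tlr3 as lower only after size factors, and the other 7 members did not pass on either scale. On the deposited scale 1 of the 10 members was called, where 5.31% of all tested genes were called (limma-trend, adjusted p under 0.05). After size factors 3 of the 10 were called, 2 higher and 1 lower, where 17.1% of all tested genes were. On the deposited scale 9 members, all but Tlr3, passed as higher without control tumour 1, while Tlr2 as higher and Tlr3 as lower passed without control tumour 3, and 0 passed in the limma fits lacking control tumour 2 or any single BAFF tumour library. Without control tumours 2 and 3 together, deposited-scale log2 fold changes of 7 members turned from positive to negative, to -0.36 for Tlr1, -0.18 for Tlr4, -0.02 for Tlr6, -0.40 for Tlr7, -0.35 for Tlr8, -0.44 for Tlr9 and -0.07 for Tlr13, and none of these 7 passed. After size factors Tlr1, Tlr7, Tlr8 and Tlr9 were negative there (-0.25 to -0.15), and Tlr4, Tlr6 and Tlr13 positive (0.02 to 0.17). The higher calls made up 7.18% of all tested genes after size factors and the lower calls 9.91%.

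**Figure D1:**
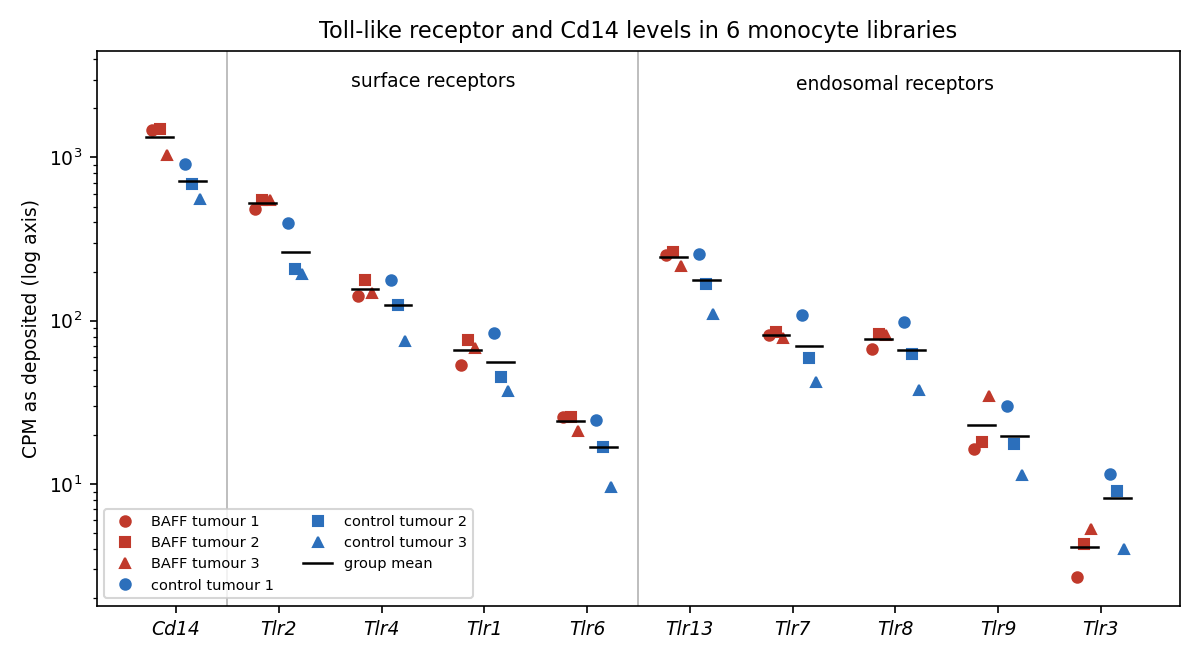
Deposited CPM of each member (log axis) in the 3 BAFF tumour libraries (red) and the 3 control tumour libraries (blue), with black bars at group means. For Cd14 and Tlr2 every BAFF tumour library lies above every control library, and for the other 8 genes the groups overlap.

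Per kilobase of annotated exon, the members kept 1 order in both groups. Cd14 came first at 768 ± 146 CPM per kilobase (SD, n = 3) in the BAFF group and 417 ± 105 in the control group, followed by Tlr2 at 175 ± 11.7 and 88.0 ± 37.5. Tlr13 was the most abundant endosomal receptor at 56.8 ± 5.7 and 41.2 ± 17.2 CPM per kilobase, above Tlr4 at 28.2 ± 3.5 and 22.6 ± 9.2. Tlr8, Tlr7 and Tlr1 lay within each other's spread at 19.8 to 21.6 CPM per kilobase in the BAFF group and 16.6 to 18.5 in the control group. Tlr9 and Tlr6 likewise overlapped, with means of 4.55 to 6.59 over both groups. Tlr3 was the scarcest member at 0.790 ± 0.26 and 1.58 ± 0.73 CPM per kilobase, resting on about 19 to 314 reads a library. In the BAFF group each of the first 4 genes lay above the next by more than the SDs. In the control group, with wider SDs, neighbours from Tlr2 down to Tlr1 overlapped within mean ± SD. These orders compare levels, and the lengths assume the annotated exons rather than the transcripts the cells used.

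Cd14 encodes the co-receptor that hands lipopolysaccharide to the Tlr4 complex and also assists Tlr2. It stood at 1462, 1489 and 1039 CPM in the BAFF group 1, 2 and 3 and at 917, 691 and 558 CPM in the control group 1, 2 and 3. All BAFF tumour libraries were above all controls, and BAFF tumour 3 came nearest to them. The log2 fold change was 0.89 ± 0.33 (SE; limma adjusted p = 0.0886) on the deposited scale, which did not pass, and 0.64 ± 0.14 (adjusted p = 0.00948) after size factors, which did. The second call was lost without BAFF tumour 2 (adjusted p = 0.0517) and without control tumours 2 and 3 together (0.72, adjusted p = 0.0644, against 0.52, adjusted p = 0.179, on the deposited scale). After size factors the levels were 1368, 1305 and 973 CPM against 723, 764 and 832 CPM, still without overlap. On the deposited scale 11.4% of all tested genes were higher and 6.6% lower without overlap, and after size factors 17.3% were higher.

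Tlr2 encodes the surface receptor for bacterial lipoproteins, which it reads as a pair with Tlr1 or Tlr6. Its level was 485, 545 and 547 CPM in the BAFF group and 396, 207 and 193 CPM in the control group, so the groups did not overlap and control tumour 1 came nearest. Tlr2 rose by 1.06 ± 0.32 in log2 units (SE; adjusted p = 0.0256, limma) on the deposited scale and 0.81 ± 0.12 (adjusted p = 0.00103) after size factors. On the deposited scale the call did not hold in 4 fits, those lacking any single BAFF tumour library or control tumour 2 (adjusted p 0.207 to 0.387), where the log2 fold change was 0.92 to 1.12. After size factors Tlr2 passed whichever of the 6 libraries was left out (log2 fold change 0.68 to 0.90). Without control tumours 2 and 3 it was 0.41 (adjusted p = 0.208) on the deposited scale and 0.61 (adjusted p = 0.0389) after size factors. There, as for the other genes, the lone control library was assumed to vary like the BAFF tumour libraries.

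The 250 bases before the RefSeq start of Tlr2 (GRCm38.p6, chr3:83841609-83841858, minus strand) and of Tlr3 (chr8:45410381-45410630, minus strand) are shown because Tlr2 and Tlr3 were the receptors called in opposite directions. Capitals mark matches, on either strand, to the NF-kB consensus, to GAGGAA (the core bound by the myeloid factor PU.1), to TGANTCA (AP-1), to the interferon regulatory factor motif and to GGGCGG (Sp1).
Tlr2: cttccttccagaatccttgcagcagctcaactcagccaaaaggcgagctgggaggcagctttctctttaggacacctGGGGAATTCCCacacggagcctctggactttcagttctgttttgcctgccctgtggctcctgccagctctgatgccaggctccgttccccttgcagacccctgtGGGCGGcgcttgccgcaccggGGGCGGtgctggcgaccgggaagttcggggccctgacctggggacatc
Tlr3: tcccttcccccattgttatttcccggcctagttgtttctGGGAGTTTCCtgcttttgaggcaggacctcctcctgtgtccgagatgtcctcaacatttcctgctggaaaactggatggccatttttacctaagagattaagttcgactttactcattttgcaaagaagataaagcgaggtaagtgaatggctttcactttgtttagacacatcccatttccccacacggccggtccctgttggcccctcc
The Tlr2 window held NF-kB matches at 2 overlapping positions, 173 and 172 bases before the start, which form 1 marked stretch. The nearer position matched on both strands. This window also held 2 Sp1 matches. The Tlr3 window held 1 NF-kB match, 211 bases before the start. Of 32851 RefSeq windows of this length, 7.25% held the NF-kB consensus, 23.3% GAGGAA, 6.75% TGANTCA, 2.98% the interferon regulatory factor motif and 32.7% GGGCGG. A match describes letters and is no evidence that a factor was bound.

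Tlr4, the lipopolysaccharide receptor, did not pass. It stood at 143, 179 and 149 CPM in the BAFF group and 177, 124 and 75.1 CPM in the control group, a range that overlapped. The log2 fold change was 0.40 ± 0.32 (SE; limma adjusted p = 0.561), and 0.14 ± 0.11 (adjusted p = 0.422) after size factors. Tlr1 and Tlr6, the partners of Tlr2, did not pass either. Tlr1 stood at 53.9, 76.5 and 68.6 CPM against 84.6, 45.3 and 37.2 CPM, with its highest value in a control library, and had a log2 fold change of 0.32 ± 0.32 (0.07 ± 0.13 after size factors). Tlr6 stood at 25.9, 25.6 and 21.1 CPM against 24.5, 16.8 and 9.60 CPM. Its log2 fold change was 0.57 ± 0.32 (limma adjusted p = 0.366), and 0.34 ± 0.14 (adjusted p = 0.125) after size factors, where the groups no longer overlapped.

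Tlr1 and Tlr6 are near-identical copies over part of their coding sequence, so their reads can be exchanged. Of the 101-base windows of the longest annotated transcripts, a length equal to the sequencing cycles in the labels, 8.75% of those of Tlr1 also occurred in Tlr6 and 7.16% of those of Tlr6 in Tlr1. Read in the direction of the transcripts, no such window of the other 8 members occurred in another gene. Matches to the opposite strand were not searched. The longest shared stretch, 229 bases inside both coding sequences (bases 1939 to 2167 of the Tlr1 transcript and 1652 to 1880 of the Tlr6 transcript, GENCODE M21), is shown to make the identity visible and has no marked part.
Tlr1 and Tlr6: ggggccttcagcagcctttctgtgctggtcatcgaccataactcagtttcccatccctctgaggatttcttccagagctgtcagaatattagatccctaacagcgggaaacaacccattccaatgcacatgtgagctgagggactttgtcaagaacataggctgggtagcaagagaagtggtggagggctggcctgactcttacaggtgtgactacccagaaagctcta

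**Figure D2:**
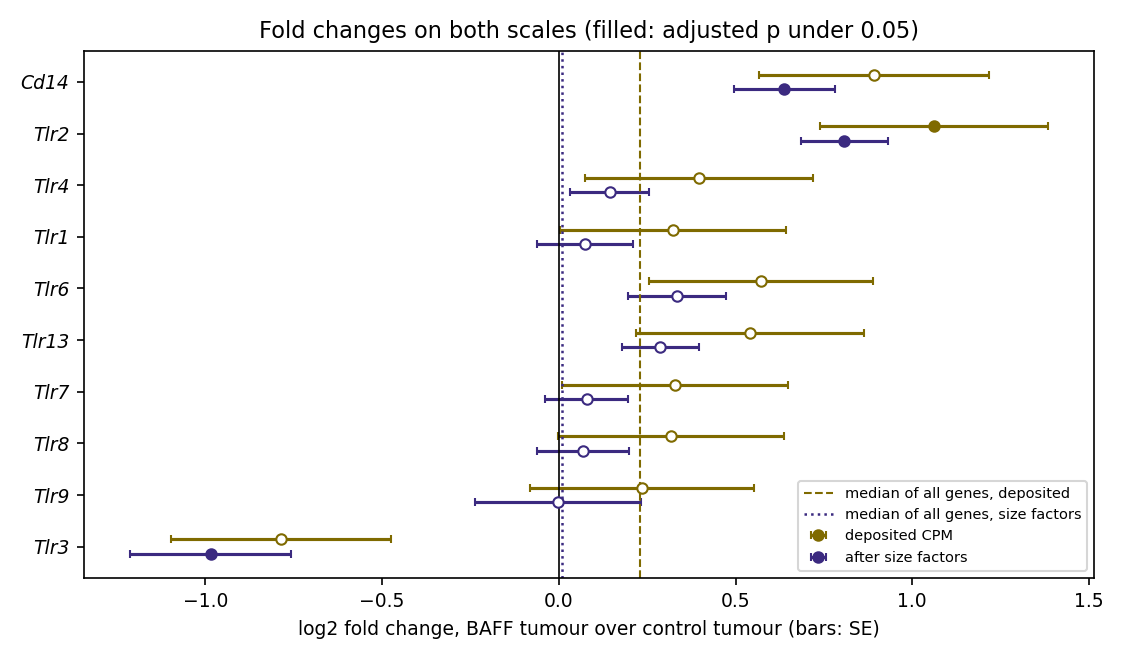
Log2 fold changes (BAFF tumour over control tumour) with SE for the 10 members on the deposited scale (ochre) and after size factors (violet), filled where the adjusted p was under 0.05, with lines at the medians of all tested genes (0.23 and 0.01). Tlr2 and Cd14 lie to the right, Tlr3 lies to the left at -0.78 and -0.99, and the other 7 genes lie between -0.002 and 0.57.

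Among the endosomal receptors only Tlr3, the sensor of double-stranded RNA, was called, and only after size factors. Its level was 2.70, 4.31 and 5.33 CPM in the BAFF group and 11.5, 9.13 and 4.02 CPM in the control group. The groups overlapped on the deposited scale because control tumour 3, the shallowest library, was below BAFF tumours 2 and 3. The log2 fold change was -0.78 ± 0.31 (SE; limma adjusted p = 0.134) on that scale and -0.99 ± 0.23 (adjusted p = 0.0116) after size factors. There the levels were 2.52, 3.78 and 4.99 CPM against 9.07, 10.1 and 6.00 CPM, without overlap, as were 17.8% of all tested genes in the lower direction. The call after size factors held whichever of the 6 libraries was left out (limma adjusted p at most 0.0475). Without control tumours 2 and 3 it was -1.32 (adjusted p = 0.000604) on the deposited scale and -1.14 (adjusted p = 0.0308) after size factors. An annotated antisense gene, Gm45542, which was not analysed here, shares 381 exon bases with Tlr3, and the library kit did not mark strand.

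Tlr13, the receptor for bacterial ribosomal RNA, stood at 252, 264 and 217 CPM in the BAFF group and 256, 167 and 109 CPM in the control group. BAFF tumour 1 and control tumour 1 were nearly level. The log2 fold change was 0.54 ± 0.32 (SE; limma adjusted p = 0.411), and 0.29 ± 0.11 (adjusted p = 0.0954) after size factors, where the groups were apart by a narrow margin, the lowest BAFF tumour library at 203 CPM and the highest control at 202 CPM. Tlr7, a receptor for single-stranded RNA, stood at 81.4, 85.3 and 78.2 CPM against 108, 59.3 and 42.3 CPM. Tlr8, its neighbour on the X chromosome, stood at 66.9, 82.9 and 82.3 CPM against 98.6, 62.6 and 37.7 CPM. For both, the BAFF tumour libraries lay inside the control range, and log2 fold changes were 0.33 ± 0.32 and 0.32 ± 0.32 (0.08 ± 0.12 and 0.07 ± 0.13 after size factors). Tlr9, the receptor for unmethylated CpG DNA, varied within the BAFF tumour group, at 16.4, 18.0 and 34.5 CPM, against 29.9, 17.7 and 11.4 CPM in the control group. Its log2 fold change was 0.23 ± 0.32 on the deposited scale and -0.002 ± 0.24 after size factors. Both were smaller than their SE, so neither scale gave Tlr9 a direction.

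The surface receptors were then set against the endosomal receptors within each library, a comparison in which library scale nearly cancels. The mean log2(CPM + 1) of the 4 surface genes exceeded that of the 5 endosomal genes by 1.37, 1.39 and 1.07 in the BAFF group 1, 2 and 3. In control libraries 1, 2 and 3 it did so by 0.80, 0.72 and 0.94. The groups did not overlap, and their means were 1.28 ± 0.18 (SD, n = 3) and 0.82 ± 0.11, a difference of 0.46 on the deposited scale and 0.45 after size factors. Leaving out each library in turn gave 0.40 to 0.56. This score over chosen members was not tested.

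The difference rested on Tlr2 on the surface side and Tlr3 on the endosomal side. Without Tlr3 it was 0.23, and the groups overlapped, BAFF tumour 3 at 0.33 lying below control tumour 3 at 0.34. Without Tlr2 it was 0.30, with BAFF tumour 3 and control tumour 3 almost level at 0.283 and 0.278. With both left out it was 0.08, the values being -0.24, -0.11 and -0.46 in the BAFF group and -0.40, -0.33 and -0.31 in the control group. For the remaining 3 surface and 4 endosomal receptors the groups thus overlapped. Leaving out Tlr2 and Tlr3 was chosen after their values were seen.

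**Figure D3:**
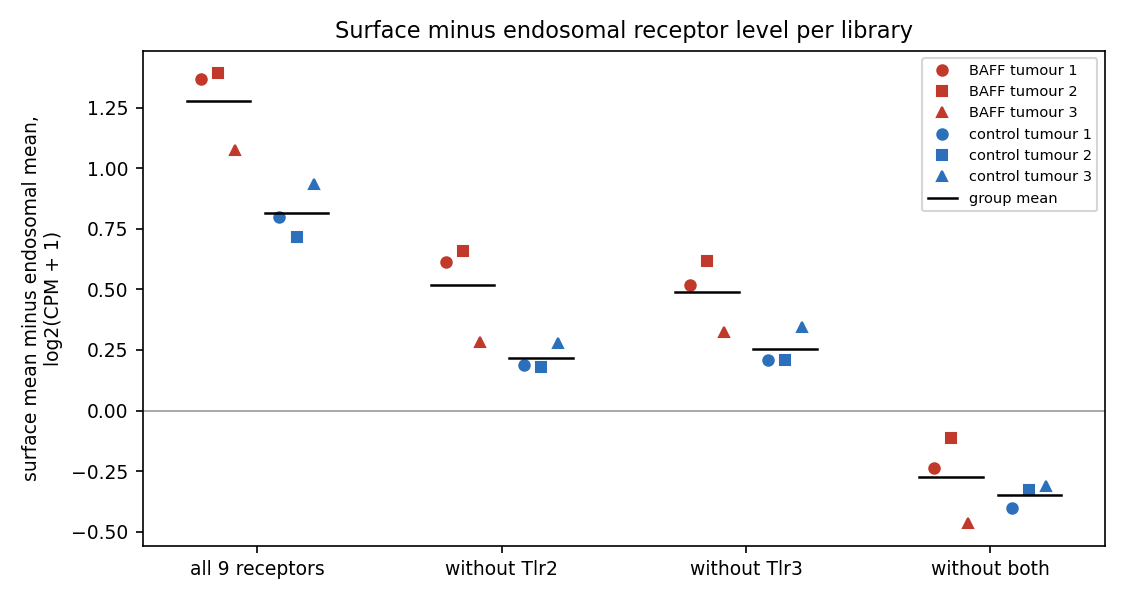
Mean log2(CPM + 1) of surface receptors minus that of endosomal receptors in each library, for all 9 receptors and without Tlr2, Tlr3 or both, with black bars at group means. The groups are apart for all 9 receptors (1.07 to 1.39 against 0.72 to 0.94) and overlap once both genes are left out.

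Ratios between members of 1 library, in which library scale and gene length cancel between groups, showed which pairs stood apart. The ratio of Tlr2 to Tlr1 CPM was 9.0, 7.12 and 7.99 in the BAFF group and 4.67, 4.57 and 5.20 in the control group, with no overlap. Relative to Tlr6 it was 18.7, 21.3 and 26.0 against 16.1, 12.3 and 20.1, which overlapped. Tlr2 relative to Tlr4 was 3.40, 3.05 and 3.69 against 2.24, 1.67 and 2.57, again without overlap. Relative to Csf1r, the receptor that marks the monocyte lineage, Tlr2 was 0.770, 0.837 and 0.784 against 0.555, 0.477 and 0.471. Tlr2 was thus higher relative to Tlr1, Tlr4 and Csf1r in every BAFF tumour library.

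Cd14 kept less distance when measured this way. Its ratio to Tlr4 was 10.2, 8.34 and 6.99 in the BAFF group and 5.18, 5.57 and 7.42 in the control group. Relative to Csf1r it was 2.32, 2.29 and 1.49 against 1.29, 1.59 and 1.36. BAFF tumour 3 lay inside the control range in both ratios. The ratio of Tlr3 to Tlr13 was 0.0107, 0.0163 and 0.0245 against 0.0448, 0.0548 and 0.0368, and that of Tlr3 to Tlr7 was 0.0331, 0.0506 and 0.0682 against 0.106, 0.154 and 0.0950. Tlr3 was lower relative to both of these endosomal receptors in every BAFF tumour library. The ratios were chosen after the members' values were seen and were not tested.

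**Figure D4:**
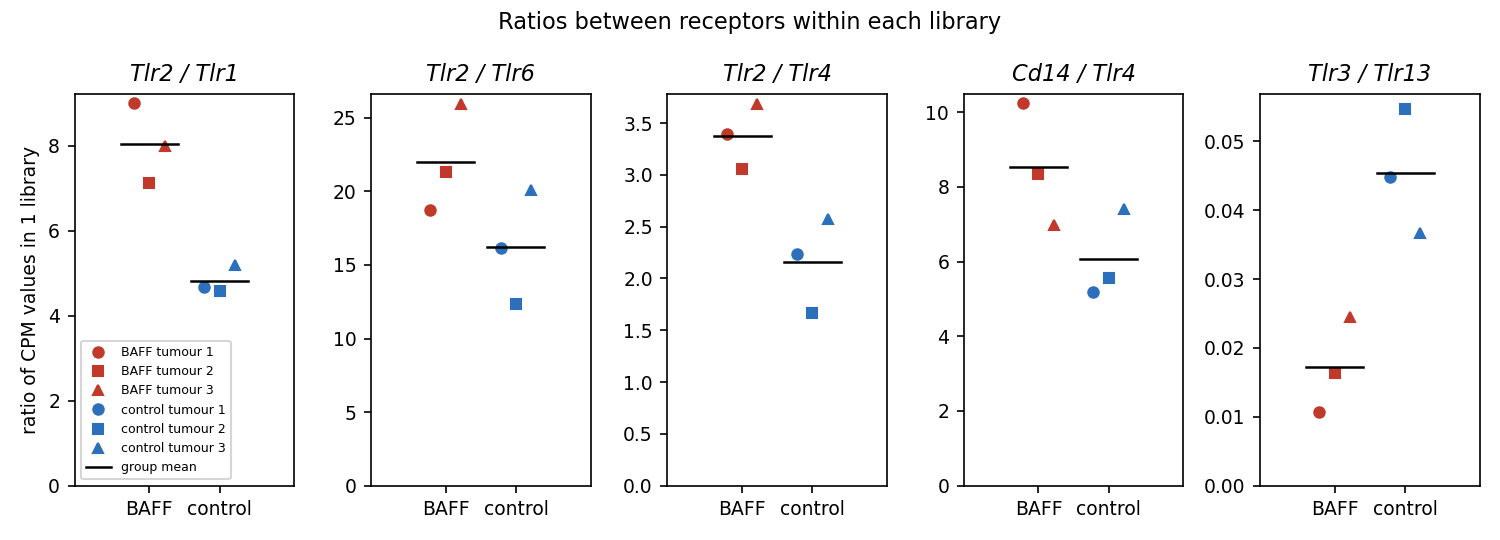
Ratio of the CPM values of gene pairs within each library, on axes that start at 0, for BAFF tumour (red) and control tumour (blue) libraries with black bars at group means. Tlr2 over Tlr1, Tlr2 over Tlr4 and Tlr3 over Tlr13 separate the groups, and Tlr2 over Tlr6 and Cd14 over Tlr4 do not.

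The profiles nearest to those of the called members, by mean absolute difference of centred log2 values over the 6 libraries after size factors, were Gpr132 (0.04) and Gm44860 (0.05) for Tlr2. For Cd14 they were Sgms1 (0.06) and Sap30 (0.07), and for Tlr3 they were Slfn9 (0.10) and Scarf1 (0.12).

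Genes that act around the receptors were taken from 8 lists ordered by role. Of 115 tested genes 5 rose and 1 fell on the deposited scale, and 17 were called higher and 3 lower after size factors, where 1.81%, 3.5%, 7.18% and 9.91% of all tested genes were called in these directions. Their median log2 fold change was 0.42 against 0.23 for all tested genes, and 0.19 against 0.01 after size factors. On the deposited scale, without control tumour 1, 75 were called higher and 1 lower, and each other fit without 1 library called at most 7. After size factors, fits without 1 library called 11 to 16 higher, and 9 of the 17 passed as higher in all 6. With neither control tumour 2 nor 3, lower calls outnumbered higher calls on the deposited scale, among these genes as among all tested genes. After size factors higher calls outnumbered lower calls among these genes, and the reverse held among all tested genes. That fit had 1 control library left, so it cannot decide whether the excess held. At an unadjusted p under 0.05, a count given below where 0 genes of a list passed, 16% of all tested genes lay on the deposited scale and 30.6% after size factors, and list counts near these shares are no result about a list.

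The remaining Toll-like receptors were scarce. Tlr12, a receptor for profilin of parasites, fell from 4.79 ± 3.6 to 1.49 ± 1.1 CPM (SD, n = 3), which in log2 units was -1.14 ± 0.30 (SE; limma adjusted p = 0.00657) and -1.29 ± 0.31 (adjusted p = 0.0138) after size factors. The groups overlapped on the deposited scale, and on both scales the call was lost without BAFF tumour 1 and without BAFF tumour 2 (adjusted p at most 0.258, and at most 0.0739 after size factors). Its partner Tlr11 stood at 2.12 ± 1.1 and 3.81 ± 3.1 CPM and the flagellin receptor Tlr5 at 8.67 ± 1.6 and 5.12 ± 1.8 CPM, and neither passed.

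Of 7 tested surface accessory genes 0 passed on the deposited scale in limma (0 at an unadjusted p under 0.05) and Cd180 passed as lower after size factors. Cd180 (RP105), a receptor relative without a TIR domain, stood at 42.9 ± 6.2 and 53.0 ± 20.7 CPM (log2 fold change after size factors -0.48 ± 0.13, limma adjusted p = 0.0223, and at most 0.0938 with 1 library left out). Ly96, the MD-2 subunit that binds lipopolysaccharide with Tlr4, stood at 6.85 ± 2.4 and 5.86 ± 1.3 CPM and did not pass. Of 17 tested chaperone, trafficking and nucleic acid processing genes 0 passed on the deposited scale in limma (1 at an unadjusted p under 0.05). After size factors Slc15a3, an endosomal peptide and histidine transporter, passed as higher (0.38 ± 0.11, limma adjusted p = 0.0282) and the ribonuclease gene Rnaset2b as lower (-0.37 ± 0.11, adjusted p = 0.0318), each in 2 of 6 fits without 1 library. Rnaset2b has a near-identical copy, so its reads are uncertain. Unc93b1, the chaperone of endosomal receptors, stood at 216 ± 22.2 and 215 ± 73.5 CPM (-0.20 after size factors, adjusted p = 0.276).

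Of the 5 tested adaptors 0 passed on either scale in limma (0 at an unadjusted p under 0.05, and 1 after size factors). Myd88 stood at 75.0 ± 7.0 CPM in the BAFF group and 51.6 ± 13.4 CPM in the control group, with no overlap (log2 fold change 0.56 ± 0.32, limma adjusted p = 0.383, and 0.31 ± 0.11, adjusted p = 0.0659, after size factors). Tirap, Ticam1 and Ticam2 had log2 fold changes of 0.35 to 0.37, and 0.11 to 0.13 after size factors.

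Downstream, 1 of 20 tested kinase and ubiquitin ligase genes rose on the deposited scale and 5 passed as higher after size factors. Peli2, a ubiquitin ligase that acts on IRAK kinases, rose from 2.38 ± 1.3 to 5.45 ± 2.0 CPM (0.95 ± 0.31, limma adjusted p = 0.0403), a call that held in 1 of 6 fits without 1 library (adjusted p at most 0.590). Irak2, a kinase of the Myd88 complex, stood at 111 ± 2.3 and 59.1 ± 19.9 CPM, missing on the deposited scale (0.96 ± 0.32, adjusted p = 0.0520) and passing after size factors (0.71 ± 0.09, adjusted p = 0.000348) and in all 6 fits without 1 library there. The IkB kinase genes Chuk (0.40 ± 0.10) and Ikbkb (0.36 ± 0.10) passed after size factors, but not in each fit without 1 library (adjusted p at most 0.0779 and 0.123). Traf6, the ubiquitin ligase next in the chain (0.35 ± 0.10), passed with all libraries and in 0 of those 6 fits (adjusted p at most 0.136).

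NF-kB subunit genes were among those called. Of 13 tested transcription factor genes 0 passed on the deposited scale in limma (5 at an unadjusted p under 0.05) and 4 were higher after size factors. Nfkb2 (p100 and p52) stood at 70.7 ± 5.8 and 41.9 ± 13.9 CPM (0.54 ± 0.10 after size factors, limma adjusted p = 0.00308) and Nfkb1 at 180 ± 26.8 and 105 ± 37.0 CPM (0.57 ± 0.12, adjusted p = 0.00588). Relb (0.54 ± 0.12) and Irf5 (0.31 ± 0.09) passed too, and of these 4 only Nfkb1 and Nfkb2 passed in all 6 fits without 1 library. Of 25 tested inhibitors 0 passed on the deposited scale in limma (4 at an unadjusted p under 0.05, a share like that of all tested genes) and 3 were higher after size factors. They were the cytokine signalling inhibitor Socs3 (300 ± 37.3 and 172 ± 68.3 CPM, 0.62 ± 0.11), the repressor gene Atf3 (0.45 ± 0.10) and the IkB family gene Nfkbid (0.42 ± 0.11), the last of which passed in 2 of 6 fits without 1 library. Tnfaip3, the ubiquitin-editing enzyme A20, stood at 563 ± 34.4 and 409 ± 180 CPM and did not pass (adjusted p = 0.389, and 0.137 after size factors).

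Among 25 tested genes known to respond to receptor ligands, 4 rose on both scales and 0 fell. The T-cell co-stimulator genes Cd80 and Cd86 rose from 40.5 ± 13.1 to 85.2 ± 10.5 CPM (1.09 ± 0.32, limma adjusted p = 0.0175) and from 70.8 ± 25.6 to 143 ± 23.5 CPM (1.05 ± 0.32, adjusted p = 0.0264). The interleukin 1 receptor antagonist gene Il1rn rose from 300 ± 95.6 to 638 ± 132 CPM (1.11 ± 0.32) and the neutrophil attractant gene Cxcl2 from 524 ± 191 to 1038 ± 209 CPM (1.02 ± 0.33). All 4 passed in 2 of 6 fits without 1 library on the deposited scale and in 6 of 6 after size factors. The cytokine genes Tnf (75.6 ± 4.0 and 72.9 ± 45.4 CPM, log2 0.22 and -0.02 after size factors), Il6 (16.1 ± 3.9 and 11.5 ± 5.1 CPM) and Il1b (1680 ± 399 and 1018 ± 422 CPM) did not pass. Several of these genes answer to many stimuli other than receptor ligands. The genes that did not pass were named after their values were seen.

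**Figure D5:**
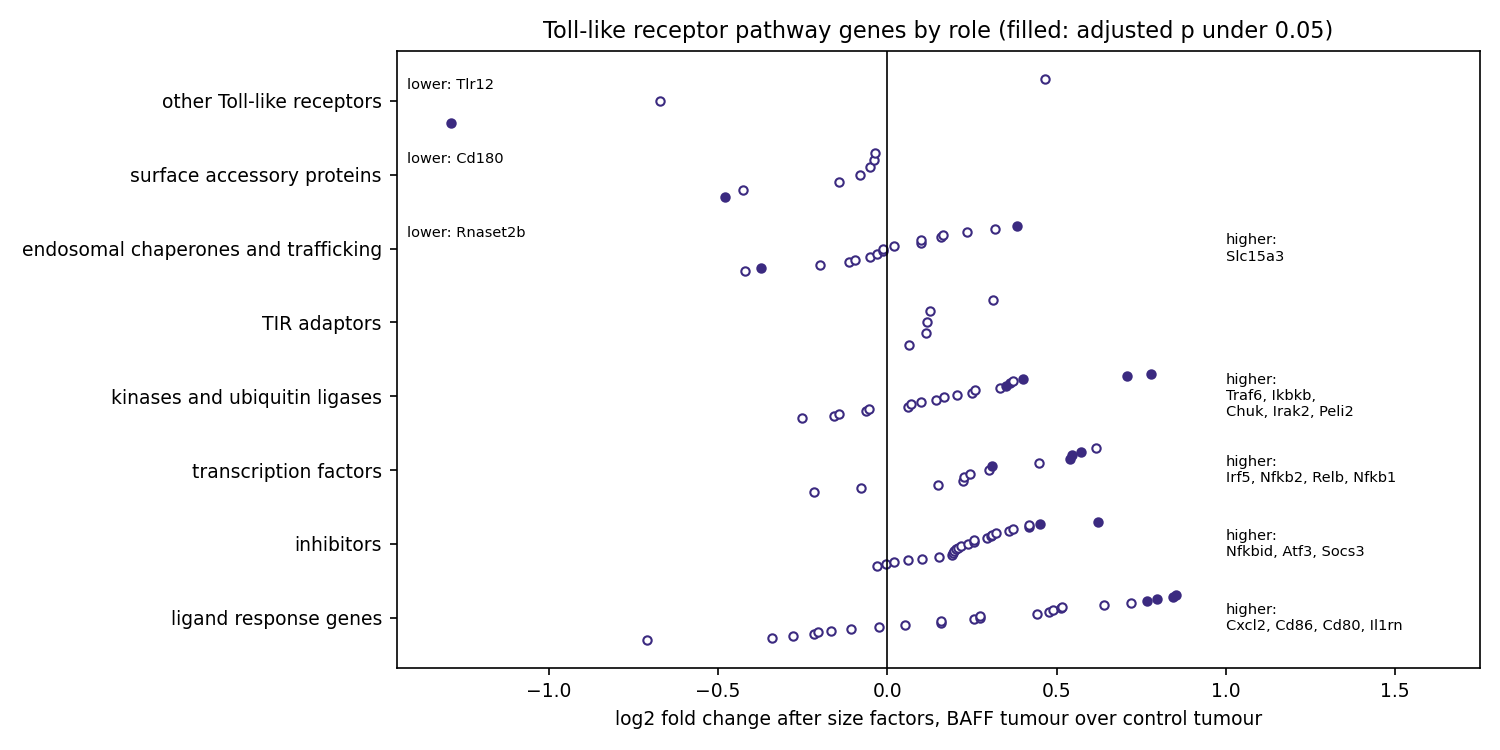
Log2 fold changes after size factors (BAFF tumour over control tumour) of the tested pathway genes by role, filled where the adjusted p was under 0.05, with their names at the sides. The called genes of the kinase, transcription factor, inhibitor and ligand response lists lie to the right of 0, and Tlr12, Cd180 and Rnaset2b lie to the left.

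Markers of other cells moved in the same libraries. Melanoma markers fell in 9 of 10 tested genes on both scales and summed to 86.5 to 178 CPM in the BAFF group and 432 to 748 CPM in the control group. Neutrophil markers, cells that also carry Tlr2 and Cd14, summed to 218 to 327 CPM against 104 to 228 CPM, with 5 of 9 higher on the deposited scale (Il1r2, Lcn2, S100a8, S100a9 and Cxcr2) and 3 of 9 after size factors (Il1r2, Csf3r and Retnlg). Il1r2 was the 1 gene in both sets and, after size factors, passed in 6 of 6 fits without 1 library, where Csf3r and Retnlg passed in 2 of 6. On the deposited scale the 5 genes passed in 2 to 5 of those 6 fits. Ly6g, Camp, Ngp and Elane were not found under these symbols and so were not analysed here. Markers of conventional dendritic cells of type 1, a cell type rich in Tlr3, Tlr11 and Tlr12, summed to 373 to 573 CPM against 298 to 551 CPM. Of 7 tested, 0 passed on the deposited scale in limma (2 at an unadjusted p under 0.05). Cadm1 passed as lower after size factors, and in 6 of 6 fits without 1 library there. The median log2 fold change of this list was -0.32 (range -0.90 to 0.35), against 0.23 for all tested genes. After size factors it was -0.49 (-1.13 to 0.10), against 0.01. The defining genes of these cells, Xcr1 and Clec9a, stood at 0.795 ± 0.31 and 1.95 ± 1.7 CPM and at 2.64 ± 0.95 and 4.53 ± 4.4 CPM, and neither passed.

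Markers of type 2 dendritic cells summed to 808 to 930 CPM against 486 to 1024 CPM, with Cd209a and Flt3 higher on both scales among 7 tested. Without 1 library Cd209a passed in 3 of 6 fits on the deposited scale and 2 of 6 after size factors, and Flt3 in 2 of 6 and 5 of 6. Plasmacytoid dendritic cell markers, of cells rich in Tlr7 and Tlr9, summed to 98.6 to 110 CPM against 72.2 to 131 CPM with 0 of 5 called in limma on either scale (0 at an unadjusted p under 0.05, and 1 after size factors). B cell markers summed to 2.07 to 2.70 CPM against 1.06 to 4.90 CPM over the 4 genes found, and T and NK cell markers to 17.0 to 25.6 CPM against 9.95 to 29.0 CPM with 0 of 7 called (1 at an unadjusted p under 0.05 on each scale). Endothelial markers summed to 32.1 to 41.7 CPM against 15.2 to 26.0 CPM. Of 3 tested, 0 passed on the deposited scale in limma (2 at an unadjusted p under 0.05). Kdr and Pecam1 were higher after size factors (in 5 and 3 of 6 fits without 1 library). Fibroblast markers summed to 36.9 to 60.3 CPM against 33.7 to 258 CPM. Of 7 tested, 0 passed on the deposited scale in limma (3 at an unadjusted p under 0.05). Col1a1 was lower after size factors (in 3 of 6 such fits). Among all tested genes 7.18% were called higher and 9.91% lower after size factors, so 1 call among 7 genes is no result about that list. The part of any of these cells in the values of Tlr2, Cd14, Tlr3 and Tlr12 was not tested, and in bulk libraries fewer cells of a type and less RNA per cell cannot be told apart. Xist, which only cells with an inactive X chromosome transcribe, stood at 313 to 369 CPM in the BAFF group and 157 to 384 CPM in the control group, so all 6 libraries held it, and of the members Tlr7, Tlr8 and Tlr13 lie on the X chromosome.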

How the data were processed

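For 6 libraries the authors deposited CPM values (reads over a library total, rescaled) of 18341 genes. The unit was read from the values, of which the low ones were whole multiples of 1 step per library, within 0.02, in 82.7% to 88.4% of cases. Software named in the submitters' processing notes, without roles, was Bowtie2 (2.2.5), STAR (2.4.1d) and Partek. Build, annotation and counting rule: not given in the sources used here. The misspelt heading of control tumour 2 was matched by its title.

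A count test was planned for counts. As the table held CPM, limma-trend (limma 3.58.1, R 4.3.3) was fitted on log2(CPM + 1) of the deposited values for the 12824 genes with a mean of at least 1 CPM, called at a Benjamini-Hochberg adjusted p under 0.05, and again after median-of-ratios size factors. Fold changes are on that log2 scale and understate changes of low genes. The fit was also run on simulated reads drawn with the same spread for every gene. That setting need not match these libraries, and no error rate is taken from it. No 2 libraries of a group agreed within sampling noise (smallest chi-square per degree of freedom 7.28). Members, gene lists and tests were chosen with earlier results of these data known. All 10 members are described. From each of the 8 pathway lists up to 4 called genes with the smallest p on each scale are named. Exon lengths came from GENCODE mouse release M21, and promoters from RefSeq (GRCm38.p6), which had windows for 7 of the 10 members.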

Additional observations from a re-analysis of the deposited data

How the results depend on the processing

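Library scale decided most calls. With median-of-ratios, trimmed-mean or upper-quartile factors 3 of the 10 members passed instead of 1, and 2192, 2228 or 2080 genes in all instead of 681. Leaving out 1 library gave 0 to 9 members and 167 to 5192 genes on the deposited scale, both highest without control tumour 1, and 2 to 3 members and 1334, 1505, 1723, 1806, 1816 or 1821 genes after median-of-ratios factors. Raising the low-value filter to 5 CPM left 316 genes and 1 member called. Without control tumours 2 and 3 the counts were 1 member, which was Tlr3, and 1861 genes (186 higher and 1675 lower), and the deposited-scale folds of 7 members turned negative without passing, and after median-of-ratios factors, a setting chosen after seeing the data, 2 members and 1122 genes. The surface minus endosomal difference was 0.39 to 0.56 over all settings tried.

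The deviations of same-numbered libraries correlated at -0.05, 0.05 and -0.04, and those of differently numbered libraries at -0.05 to 0.09. With 3 libraries a group, these values cannot settle whether replicate numbers paired the libraries. With the replicate block 1 member and 608 genes passed, and with the block and median-of-ratios factors 3 members and 1940 genes. A pseudocount of 0.1, no filter on low values and a robust spread each left 1 member called. Among the 10 members depth limits Tlr3 most, with about 19 reads in control tumour 3. Tlr12 rested on as few as about 8 reads in BAFF tumour 1 and Peli2 on about 7 in control tumour 3.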
